A study of Mus musculus with 8 samples.

Results

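The 10 genes described here encode proteins that lung epithelium makes, read out in libraries of sorted lung endothelial cells. They were taken by symbol from the 31610 genes of the count table: 3 genes of airway club cells (Scgb1a1, Scgb3a2 and Cbr2), 1 of ciliated cells (Foxj1) and 6 of alveolar type 2 cells (Sftpa1, Sftpb, Sftpc, Sftpd, Napsa and Lamp3). The set was chosen by what was already seen in these libraries, the differences in counts of Scgb3a2, Scgb1a1 and Foxj1 between the treatment groups, so group differences of the 10 genes are given as descriptions. How many of them edgeR and DESeq2 called is counted once, with nothing read from it. All 10 were found and all 10 passed the filter on low counts. The cells came from lungs of C57BL/6J mice given an adeno-associated virus (AAV), a vector that carries a gene into tissue. The nANGPTL4 AAV group, whose titles read NT Treated, had 4 libraries and the Control AAV group had 4, each an independent biological replicate per the series' design text. ANGPTL4 is a secreted protein that blocks lipoprotein lipase. The sources used here do not give the promoter, serotype, dose or timing of the vectors, or the age of the mice.

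Club cells line the small airways and secrete proteins of the secretoglobin family into the fluid over the epithelium, while neighbouring ciliated cells move that fluid. Type 2 cells of the alveoli make surfactant, a film of lipid and dedicated proteins that is stored in lamellar bodies and keeps the air spaces open. Some surfactant protein genes, Sftpb, Sftpa1 and Sftpd among them, are also used by club cells in the mouse, whereas Sftpc is a marker of type 2 cells.

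Total counts were 83183122 to 114337333 per library. The endothelial label was met by the defining markers. Kdr, the VEGF receptor, averaged 3270 ± 270 CPM in nANGPTL4 AAV and 3376 ± 288 CPM in Control AAV libraries, and Cldn5, an endothelial tight junction protein, averaged 3179 ± 187 CPM in nANGPTL4 AAV and 3213 ± 158 CPM in Control AAV (SD, n = 4 each). CPM is a gene's count scaled to a common library size, after TMM scaling. The general epithelial marker Epcam averaged 0.559 ± 0.125 CPM in nANGPTL4 AAV and 0.557 ± 0.152 CPM in Control AAV. Together the 10 epithelial genes took 0.0197% ± 0.00620 of all counts in nANGPTL4 AAV and 0.0144% ± 0.00659 in Control AAV libraries (SD, n = 4 each). In bulk libraries such as these, fewer cells of a type and less RNA per cell cannot be told apart.

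Divided by exon length, which allows levels of different genes to be compared, Sftpc was the highest of the 10 genes. Its level was 109 ± 44.3 CPM per kb in nANGPTL4 AAV and 85.6 ± 42.5 CPM per kb in Control AAV (SD, n = 4 each). Scgb1a1 followed with 66.6 ± 14.8 CPM per kb in nANGPTL4 AAV and 28.2 ± 16.3 CPM per kb in Control AAV. Cbr2 came next with 7.88 ± 1.31 CPM per kb in nANGPTL4 AAV and 7.54 ± 2.97 CPM per kb in Control AAV. Sftpa1, at 7.75 ± 2.81 CPM per kb in nANGPTL4 AAV and 6.75 ± 3.42 CPM per kb in Control AAV, differed from Cbr2 by less than the spread of libraries. Sftpb, Sftpd, Napsa, Scgb3a2, Foxj1 and Lamp3 lay lower, with means of 0.392 to 4.15 CPM per kb in nANGPTL4 AAV and 0.364 to 3.27 CPM per kb in Control AAV. On the same scale Kdr averaged 368 and Cldn5 2257 CPM per kb over the 8 libraries, both above every epithelial gene.

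**Figure D1:**
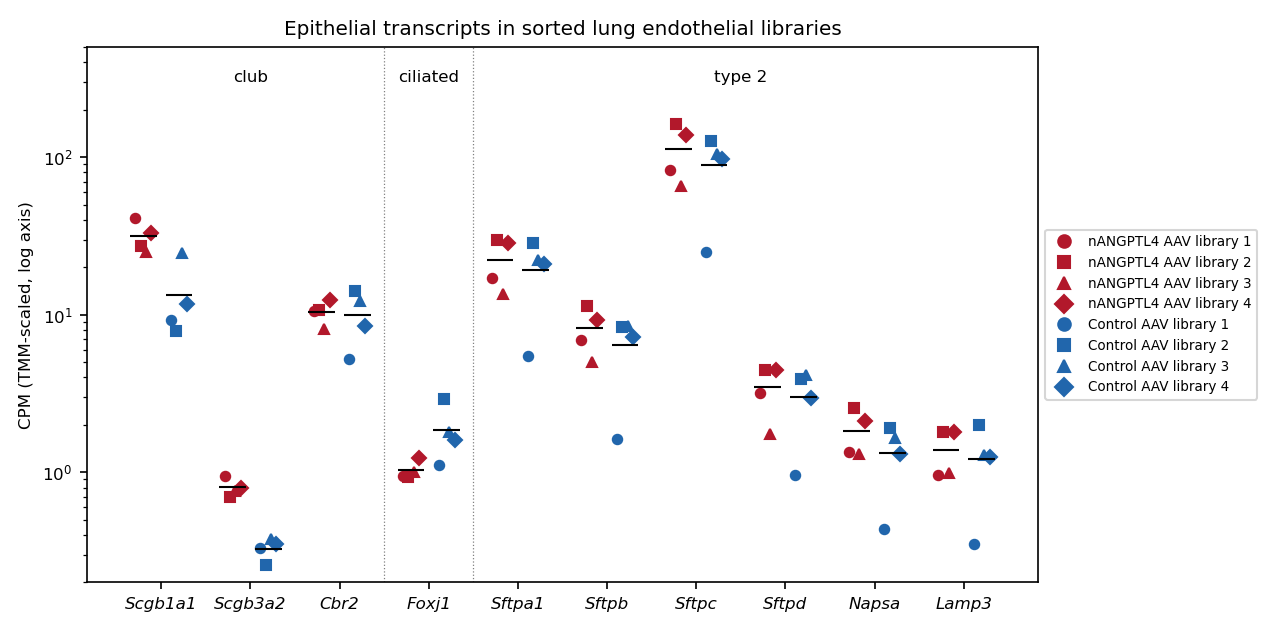
CPM (log axis) of the 10 epithelial genes in each library, nANGPTL4 AAV in red to the left and Control AAV in blue to the right of each gene, with a black bar at the group mean. Scgb1a1 and Scgb3a2 show no overlap between groups, and Control AAV library 1 is the lowest of all 8 libraries for each of the 6 type 2 genes.

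Of the secreted airway proteins, Scgb1a1 encodes the club cell secretory protein. Its levels were 41.1, 27.5, 25.2 and 33.0 CPM in nANGPTL4 AAV libraries 1 to 4 and 9.32, 7.88, 24.8 and 11.7 CPM in Control AAV libraries 1 to 4. The groups did not overlap, although library 3 of nANGPTL4 AAV and library 3 of Control AAV were nearly tied. The log2 fold change was 1.24 (SE 0.31), nANGPTL4 AAV minus Control AAV, from edgeR's fit across 18874 genes. Left-out libraries moved it from 1.07 without Control AAV library 2 to 1.73 without Control AAV library 3. GENCODE M21 places the gene at chr19:9083636-9087958 of mm10, minus strand.

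Scgb3a2, a second secretoglobin of airway secretory cells, was the lower of the pair per kb, at 0.914 ± 0.121 CPM per kb in nANGPTL4 AAV and 0.373 ± 0.0583 CPM per kb in Control AAV. It had 88, 71, 84 and 82 counts in nANGPTL4 AAV libraries 1 to 4 and 30, 29, 31 and 35 counts in Control AAV libraries 1 to 4. In CPM this was 0.952, 0.701, 0.765 and 0.798 in nANGPTL4 AAV and 0.329, 0.257, 0.375 and 0.352 in Control AAV. The groups did not overlap, and the pooled SD within groups, 0.204 in log2 CPM, was the smallest of the 10 genes. The prior count of 2 used in log2 CPM narrows the spread at low counts. As the gene was chosen with its group difference known, nothing is read from this spread. The highest library was 1.36 times the lowest in nANGPTL4 AAV and 1.46 times in Control AAV. Its log2 fold change was 1.30 (SE 0.19), and between 1.20 and 1.37 with any 1 library left out.

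The remaining club cell gene, Cbr2, encodes a carbonyl reductase, and in mice it is also made by some tissue macrophages. It did not share the pattern of the secretoglobins. Its levels were 10.6, 10.7, 8.16 and 12.4 CPM in nANGPTL4 AAV libraries 1 to 4 and 5.22, 14.1, 12.2 and 8.52 CPM in Control AAV libraries 1 to 4, so the Control AAV libraries lay on both sides of all nANGPTL4 AAV libraries. The log2 fold change was 0.06 (SE 0.25) and turned to -0.14 without Control AAV library 1. Within a library, Scgb1a1 had 32.9 to 43.1 counts per Scgb3a2 count in nANGPTL4 AAV and 28.3 to 66.1 in Control AAV. Cbr2 had 25.8 to 39.0 counts per 100 Scgb1a1 counts in nANGPTL4 AAV and 49.1 to 179 in Control AAV, with no overlap between the groups. As Scgb1a1 was chosen with its group difference known, nothing is read from the separation of this ratio.

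Foxj1, the transcription factor that switches on the programme for motile cilia, went the other way. It was at 0.941, 0.938, 1.0 and 1.24 CPM in nANGPTL4 AAV libraries 1 to 4 and 1.12, 2.94, 1.79 and 1.61 CPM in Control AAV libraries 1 to 4. Control AAV library 2 was the highest, and Control AAV library 1 lay below nANGPTL4 AAV library 4, so the groups overlapped. The log2 fold change was -0.86 (SE 0.26), which was -0.54 without Control AAV library 2 and -1.03 without Control AAV library 1. The gene lies at chr11:116330704-116335399 of mm10, minus strand.

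Sftpc encodes surfactant protein C, a small hydrophobic protein that helps to spread the surfactant film. Its levels were 83.3, 163, 65.1 and 138 CPM in nANGPTL4 AAV libraries 1 to 4 and 25.0, 126, 105 and 98.0 CPM in Control AAV libraries 1 to 4. The groups overlapped, and Control AAV library 1 stood well below all others. Across the 8 libraries the highest was 6.5 times the lowest. Between groups the log2 fold change was 0.34 (SE 0.42). Without Control AAV library 1 it was 0.04. The gene lies at chr14:70520949-70524081 of mm10, minus strand.

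The other 5 type 2 genes were likewise lowest in Control AAV library 1. Sftpa1, which encodes a collectin that binds microbes, was at 17.1, 29.6, 13.6 and 28.3 CPM in nANGPTL4 AAV libraries 1 to 4 and 5.45, 28.5, 22.4 and 20.9 CPM in Control AAV libraries 1 to 4. Sftpb, the protein without which the surfactant film does not form, was at 6.94, 11.4, 5.04 and 9.28 CPM in nANGPTL4 AAV and 1.64, 8.41, 8.47 and 7.22 CPM in Control AAV. In both genes nANGPTL4 AAV library 2 was the highest and Control AAV library 1 the lowest.

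Sftpd, a second lung collectin, was at 3.20, 4.45, 1.74 and 4.43 CPM in nANGPTL4 AAV libraries 1 to 4 and 0.966, 3.92, 4.12 and 2.95 CPM in Control AAV libraries 1 to 4. Napsa, an aspartic protease that processes the precursor of surfactant protein B, was at 1.34, 2.57, 1.31 and 2.11 CPM in nANGPTL4 AAV and 0.439, 1.91, 1.66 and 1.30 CPM in Control AAV. An antisense gene covers 18.9% of the exonic bases of Napsa, and the strand setting of the counting was not given, so its counts are less certain. Lamp3, a membrane protein of lamellar bodies that in humans mature dendritic cells also make, was at 0.962, 1.81, 0.993 and 1.79 CPM in nANGPTL4 AAV and 0.351, 2.0, 1.28 and 1.247 CPM in Control AAV. The groups overlapped in each of the 6 type 2 genes, whose log2 fold changes were 0.18 to 0.46 with SEs of 0.37 to 0.42. Without Control AAV library 1 Sftpa1, Sftpd and Lamp3 had log2 fold changes of -0.10, -0.08 and -0.12, and Sftpb, Sftpc and Napsa remained at 0.03 to 0.18.

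Of the 10 genes, 1 was called higher, Scgb3a2, and 0 lower at an adjusted p under 0.05 by edgeR's quasi-likelihood test, where 0.0477% of all 18874 genes tested were called higher and 0.0901% lower. Groups did not overlap for 2 genes, both higher in nANGPTL4 AAV (Scgb1a1 and Scgb3a2), against 3.89% of all genes in that direction and 6.99% in the other. DESeq2 called 3 of the 10, Scgb1a1, Scgb3a2 and Foxj1, where it called 5.07% of all genes. Since the genes were chosen with this comparison known, nothing is read from these counts. The call of Scgb3a2 was lost with any 1 of the 8 libraries left out, with upper quartile scaling, with library size alone and with the replicate number as a block, and the stricter filter removed the gene. Without Control AAV library 3 edgeR called Scgb1a1 instead.

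The 6 type 2 genes kept near fixed proportions from library to library. Per 100 Sftpc counts there were 18.2 to 22.6 Sftpa1 counts over the 8 libraries and 6.53 to 8.34 Sftpb counts, so that the highest ratio was 1.24 and 1.28 times the lowest. For Sftpd the ratio was 2.67 to 3.92, for Napsa 1.32 to 2.01 and for Lamp3 1.11 to 1.59. The airway genes kept no such proportion to Sftpc. Scgb1a1 had 49.3, 16.9, 38.7 and 23.9 counts per 100 Sftpc counts in nANGPTL4 AAV libraries 1 to 4 and 37.2, 6.26, 23.6 and 11.9 in Control AAV libraries 1 to 4, a 7.87-fold range with overlapping groups. The range of the Foxj1 ratio was 7.75-fold and that of Scgb3a2 6.45-fold, while Cbr2 varied 3.17-fold.

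**Figure D2:**
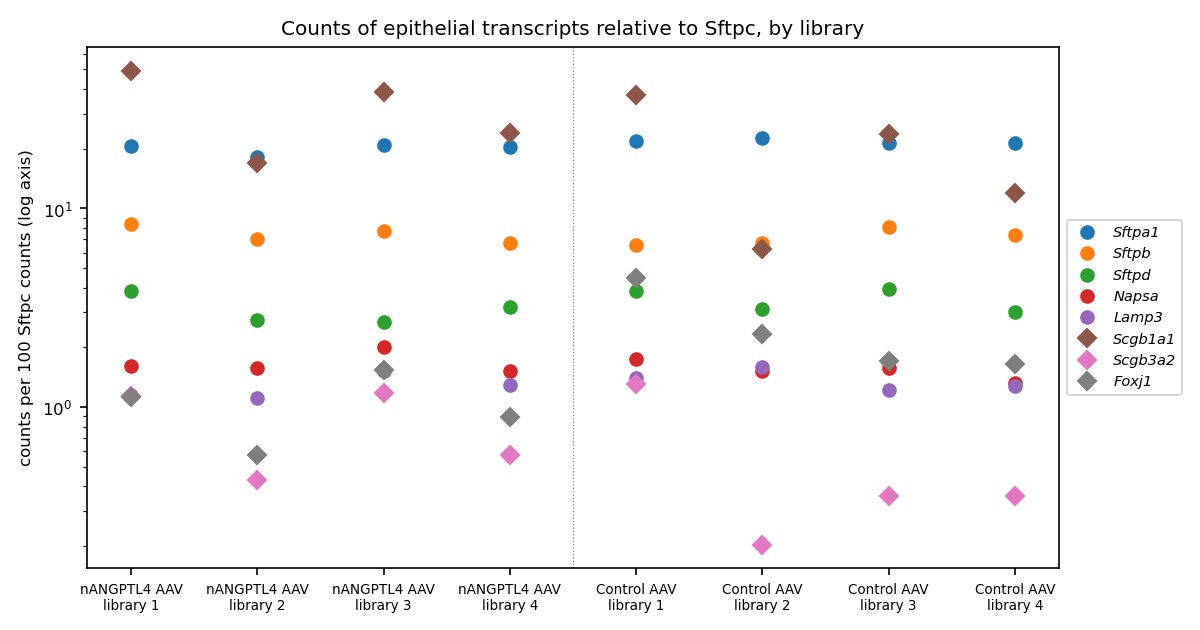
Counts of 8 epithelial genes per 100 Sftpc counts (log axis) in each library, with circles for type 2 genes and diamonds for airway genes. The circles stay level across libraries, Sftpa1 between 18.2 and 22.6, while the Scgb1a1 diamonds range from 6.26 to 49.3.

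The variation between libraries of one group was not used to choose the genes, so 6 pairs were tested on it. Deviations of log2 CPM from the group mean were correlated over the 8 libraries, with an exact two-sided permutation of libraries within groups and Benjamini-Hochberg adjustment over the 6 pairs. Sftpc and Sftpb deviated together, with r = 0.988 (exact p = 0.00347, adjusted p = 0.0156) and rho = 0.905 (exact p = 0.00694, adjusted p = 0.0208). Sftpc and Sftpd did too, with r = 0.967 (exact p = 0.00521, adjusted p = 0.0156) and rho = 0.929 (exact p = 0.00694, adjusted p = 0.0208). Without Control AAV library 1 and nANGPTL4 AAV library 3, the 2 farthest from the median of Sftpc, r was 0.947 and 0.807 with exact p of 0.0556 and 0.0833. The 36 arrangements then left allow no p under 0.0278 before adjustment, too few for the adjusted test of these pairs. Leaving out any 1 library kept r between 0.9705 and 0.992 for Sftpb and between 0.898 and 0.982 for Sftpd. Permutation adjusted p was then 0.0833 for both pairs without nANGPTL4 AAV library 1, without nANGPTL4 AAV library 3 or without Control AAV library 1, 0.0625 without Control AAV library 4, and 0.0417 without any of the others.

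Scgb1a1 and Scgb3a2 deviated in the same direction, but the relation did not pass after adjustment, with r = 0.780 (exact p = 0.0573, adjusted p = 0.115) and rho = 0.762 (exact p = 0.0382, adjusted p = 0.0764). Without Control AAV library 3 and nANGPTL4 AAV library 1, the 2 farthest from the median of Scgb1a1, r was 0.804 (exact p = 0.167). With Control AAV library 2 or Control AAV library 3 left out the permutation adjusted p was 0.0417, at r = 0.693 and 0.891. No relation passed between Scgb1a1 and Cbr2 (r = 0.295, exact p = 0.660, adjusted p = 0.833, rho = 0.214 with exact p = 0.670 and adjusted p = 0.983) or between Scgb1a1 and Foxj1 (r = -0.121, exact p = 0.842, adjusted p = 0.842, rho = 0.0714 with exact p = 0.903 and adjusted p = 0.983). Between an airway and an alveolar gene, Scgb1a1 and Sftpc had r = 0.210 (exact p = 0.694, adjusted p = 0.833) and rho = 0.0238 (exact p = 0.983, adjusted p = 0.983), with r = -0.00247 within nANGPTL4 AAV and 0.264 within Control AAV. With the same 2 libraries left out these 3 pairs had r = -0.116, -0.293 and 0.136 (exact p = 0.972, 0.806 and 0.889). These values do not show that airway and type 2 transcripts vary independently. Among the other airway genes, and given with no p, deviations from the group mean had r = 0.890 with Sftpc for Cbr2, 0.730 for Foxj1 and -0.267 for Scgb3a2. Over the 10 fibroblast and mural genes, r with Sftpc ran from -0.158 for Myh11 to 0.927 for Dcn. Pdgfrb had 0.183, and Col1a1, like Dcn a matrix gene of fibroblasts, had 0.926. Over the erythroid and platelet genes tested, r with Sftpc ran from -0.0645 for Alas2 to 0.8205 for Hbb-bt. The platelet genes Itga2b, Gp9, Pf4 and Ppbp had 0.706 to 0.772. The part of these markers in the relations above was not tested.

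**Figure D3:**
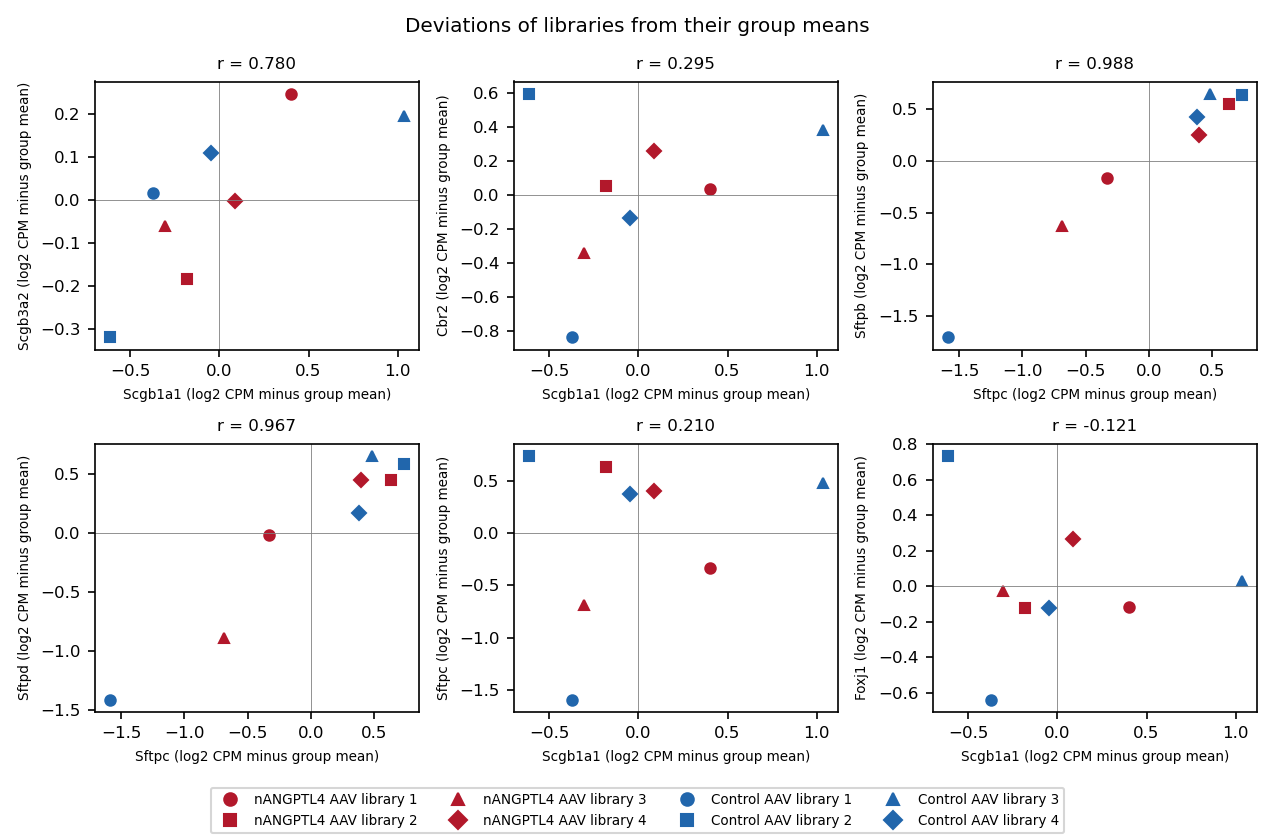
Deviation of each library from its group mean in log2 CPM for the 6 pairs tested, nANGPTL4 AAV in red and Control AAV in blue, with Pearson r above each panel. Sftpc with Sftpb (r = 0.988) and with Sftpd (r = 0.967) fall along a line, Scgb1a1 with Sftpc (r = 0.210) does not.

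Of 10742 genes with a mean log2 CPM of at least 1, ranked by Pearson r of the same deviations over 8 libraries and given with no p, the 5 most like Sftpc were Sftpa1 (r = 0.997), Chil1 (0.997), Lyz2 (0.995), Scd1 (0.990) and Sftpb (0.988). Chil1 encodes a secreted chitinase-like protein, Lyz2 a lysozyme that mouse type 2 cells make as well as macrophages, and Scd1 a fatty acid desaturase. Chil1 had 2.74 to 3.29 counts per 100 Sftpc counts, a 1.20-fold range, and Lyz2 24.1 to 34.7, a 1.44-fold range. The 5 most like Scgb1a1 held no gene of the epithelial lists: Ccsap (r = 0.962), Cmtm4 (0.960), Zfp428 (0.960), Alms1 (0.955) and Atp2b1 (0.954). With 8 libraries this is a ranking only.

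For Sftpa1, Sftpb and Lamp3, the 250 bases before their RefSeq start sites are shown (GRCm38.p6). RefSeq held a window for 4 of the 10 genes. By GENCODE M21, exons cover 6 bases of the Sftpa1 window, 10 of the Lamp3 window and 93 of the Cbr2 window, which is not shown. Positions below count from the RefSeq start. A link between these sequences and the levels above was not tested. Capitals mark matches, on either strand, to CTCAAG, a core of sites for the lung epithelial factor NKX2-1, to TGTTTNC, a core for FOXA factors, and to the TATA box TATAAA.
Sftpb, chr6:72304360-72304609, plus strand: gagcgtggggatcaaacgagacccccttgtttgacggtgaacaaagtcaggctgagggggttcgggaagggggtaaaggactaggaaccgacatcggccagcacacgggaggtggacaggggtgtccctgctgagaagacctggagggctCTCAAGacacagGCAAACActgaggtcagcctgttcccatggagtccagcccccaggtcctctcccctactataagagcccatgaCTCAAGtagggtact
Sftpa1, chr14:41131538-41131787, plus strand: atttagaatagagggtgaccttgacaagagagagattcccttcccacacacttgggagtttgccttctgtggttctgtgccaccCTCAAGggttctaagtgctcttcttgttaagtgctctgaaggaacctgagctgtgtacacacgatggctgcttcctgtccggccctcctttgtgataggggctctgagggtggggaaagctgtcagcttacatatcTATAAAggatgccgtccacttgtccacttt
Lamp3, chr16:19706366-19706615, minus strand: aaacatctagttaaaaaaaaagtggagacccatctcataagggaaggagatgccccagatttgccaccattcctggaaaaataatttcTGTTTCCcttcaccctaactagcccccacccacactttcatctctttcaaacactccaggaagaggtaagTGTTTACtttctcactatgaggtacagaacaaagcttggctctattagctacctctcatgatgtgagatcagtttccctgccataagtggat
Sftpb held CTCAAG at 100 and at 15 bases before the start and TGTTTNC on the other strand at 88 bases, and the matches did not overlap. Sftpa1 held CTCAAG at 166 bases and TATAAA at 30 bases before the start. Lamp3 held TGTTTNC at 162 and 92 bases and no CTCAAG, and Cbr2, the fourth gene with a window, held 1 TGTTTNC and no CTCAAG. Over 32851 RefSeq windows of this length, 13.3% held CTCAAG, 17.8% TGTTTNC and 12.4% TATAAA. A match of letters is not a binding site.

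Further genes of lung epithelium were taken from lists that hold none of the 10. None of the 64 tested of 77 listed genes was called by edgeR's quasi-likelihood test, where 0.138% of all genes were. At an unadjusted p under 0.05 there were 8 higher and 5 lower in the edgeR test, against 17.6% of all genes in either direction. DESeq2 called 0 higher and 2 lower, the ciliated cell genes Tmem212 and Rsph1, which is 3.12% of the 64 where it called 5.07% of all genes. The median log2 fold change of the 64 was 0.15, with 44 positive and 20 negative, and that of all genes tested was 0.01. Groups did not overlap for 5 of the 64 in the higher direction (Muc5b, Krt7, Nkx2-1, Spdef and Agr2), against 3.89% of all genes. In the lower direction they did not overlap for 2 (Tmem212 and Rsph1), against 6.99%.

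Of the other club cell genes 6 of 11 were tested, 5 positive and 1 negative, with a median log2 fold change of 0.55. Cyp2f2, a cytochrome P450 of club cells, was at 6.52 ± 1.28 CPM in nANGPTL4 AAV and 4.44 ± 1.44 CPM in Control AAV (SD, n = 4 each). Its log2 fold change was 0.56 (SE 0.22), with an adjusted p of 0.220 by edgeR. Scgb3a1, another secretoglobin, was at 3.17 ± 0.516 CPM in nANGPTL4 AAV and 3.39 ± 0.711 CPM in Control AAV, with a log2 fold change of -0.09 (SE 0.17) and an adjusted p of 0.818 by edgeR. The difference in fold change between secretoglobins was not tested. Bpifa1, a secreted protein of upper airways chosen here after its values were seen, ranged from 0.0778 to 0.930 CPM in nANGPTL4 AAV and from 0.0708 to 0.614 CPM in Control AAV. It was highest in nANGPTL4 AAV library 1 and Control AAV library 4.

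Among the ciliated cell genes besides Foxj1, 15 of 16 were tested, 3 positive and 12 negative, with a median log2 fold change of -0.51. As for Foxj1, Control AAV library 2 was the highest library for the negative genes Ccdc153, Dynlrb2, Tmem212, Dnah5, Rsph1, Cdhr3 and Ak7. It was not for the negative genes Cfap126, Dnah9, Hydin, Tekt1 and Deup1. How far the median rests on that library was not tested. Rsph1, part of the radial spokes of cilia, averaged 0.308 ± 0.0188 CPM in nANGPTL4 AAV and 0.708 ± 0.332 CPM in Control AAV (SD, n = 4 each). Its log2 fold change was -1.20 (SE 0.32), with an adjusted p of 0.107 by edgeR. Tmem212 averaged 0.280 ± 0.0529 CPM in nANGPTL4 AAV and 0.548 ± 0.186 CPM in Control AAV, with a log2 fold change of -0.97 (SE 0.26) and an adjusted p of 0.110 by edgeR. In both genes every nANGPTL4 AAV library lay below the Control AAV libraries, as held for 6.99% of all genes tested. The ratio to Foxj1 varied less than 3-fold over the libraries for 7 of the 16 listed genes (1.58 to 2.48-fold) and 3.02 to 9.42-fold for the other 9, while that of the club cell gene Cbr2 varied 2.45-fold. Ccdc153 had the narrowest range, 43.7 to 69.0 counts per 100 Foxj1 counts, and Mcidas the widest. The 2 genes of the list with the highest CPM were among the 9. Tppp3, a tubulin-binding protein, was at 221 to 257 CPM in nANGPTL4 AAV and 218 to 248.9 CPM in Control AAV, with a log2 fold change of 0.07 (SE 0.06). Sec14l3, of the family of lipid transfer proteins, was at 30.6 to 35.1 CPM in nANGPTL4 AAV and 18.8 to 34.5 CPM in Control AAV, with a log2 fold change of 0.24 (SE 0.14).

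All 11 other type 2 genes were tested, 8 positive and 3 negative, with a median log2 fold change of 0.23. The ratio to Sftpc varied by 1.20 to 2.99-fold over the libraries for 7 of them, with Hc at 2.21 and Muc1 at 2.99-fold, the last close to the 3.17-fold of the airway gene Cbr2. For the other 4, Abca3, Lpcat1, Il33 and Etv5, it varied by 5.29 to 6.72-fold. Slc34a2, the phosphate transporter of type 2 cells, had 6.00 to 7.83 counts per 100 Sftpc counts, a 1.31-fold range, and Cxcl15, a lung chemokine, 1.03 to 1.46, a 1.42-fold range. Abca3, the lipid transporter of lamellar bodies, averaged 137 ± 7.19 CPM in nANGPTL4 AAV and 141 ± 7.42 CPM in Control AAV (SD, n = 4 each). Lpcat1, which remodels surfactant phosphatidylcholine, lay at 209.6 to 236.5 CPM in nANGPTL4 AAV and 213 to 238 CPM in Control AAV, and its ratio to Sftpc varied 5.92-fold against 6.55-fold for Abca3. The low type 2 level of Control AAV library 1 was thus not shared by these 2 genes.

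Type 1 cell genes, which mark the thin cells of the alveolar wall, were all 9 tested and all 9 positive, with a median log2 fold change of 0.38. Hopx, a homeodomain protein, was at 276 ± 13.4 CPM in nANGPTL4 AAV and 251 ± 25.8 CPM in Control AAV (log2 fold change 0.14, SE 0.07, edgeR adjusted p = 0.356). Gprc5a, an orphan receptor, was at 73.9 ± 7.97 CPM in nANGPTL4 AAV and 70.0 ± 11.0 CPM in Control AAV (log2 fold change 0.08, SE 0.11, edgeR adjusted p = 0.760). Over the 8 libraries, CPM of Hopx varied 1.37-fold, of Gprc5a 1.54-fold and of the other type 1 genes 1.63 to 2.81-fold. Tppp3, Abca3 and Lpcat1 of the lists above varied 1.18, 1.13 and 1.14-fold. The 10 pan-endothelial genes varied 1.12 to 1.34-fold, and Sftpc 6.5-fold. Which cells these transcripts came from was not tested. Among 19 pan-epithelial genes 18 were tested, 14 positive, with a median of 0.13. Krt7, a keratin of simple epithelia, was at 10.6 ± 1.03 CPM in nANGPTL4 AAV and 6.70 ± 2.42 CPM in Control AAV (log2 fold change 0.66, SE 0.21, edgeR adjusted p = 0.147). Cdh1, the epithelial cadherin, was at 4.90 ± 0.887 CPM in nANGPTL4 AAV and 5.03 ± 1.34 CPM in Control AAV (log2 fold change -0.04, SE 0.19, edgeR adjusted p = 0.939). Among basal, goblet and neuroendocrine genes 5 of 11 were tested, all 5 positive, with a median of 0.53. Agr2, a goblet cell protein of the secretory pathway, was at 0.576 ± 0.0548 CPM in nANGPTL4 AAV and 0.350 ± 0.111 CPM in Control AAV (edgeR adjusted p = 0.155). Spdef, a goblet cell transcription factor, was at 0.364 ± 0.115 CPM in nANGPTL4 AAV and 0.187 ± 0.0713 CPM in Control AAV (edgeR adjusted p = 0.165).

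**Figure D4:**
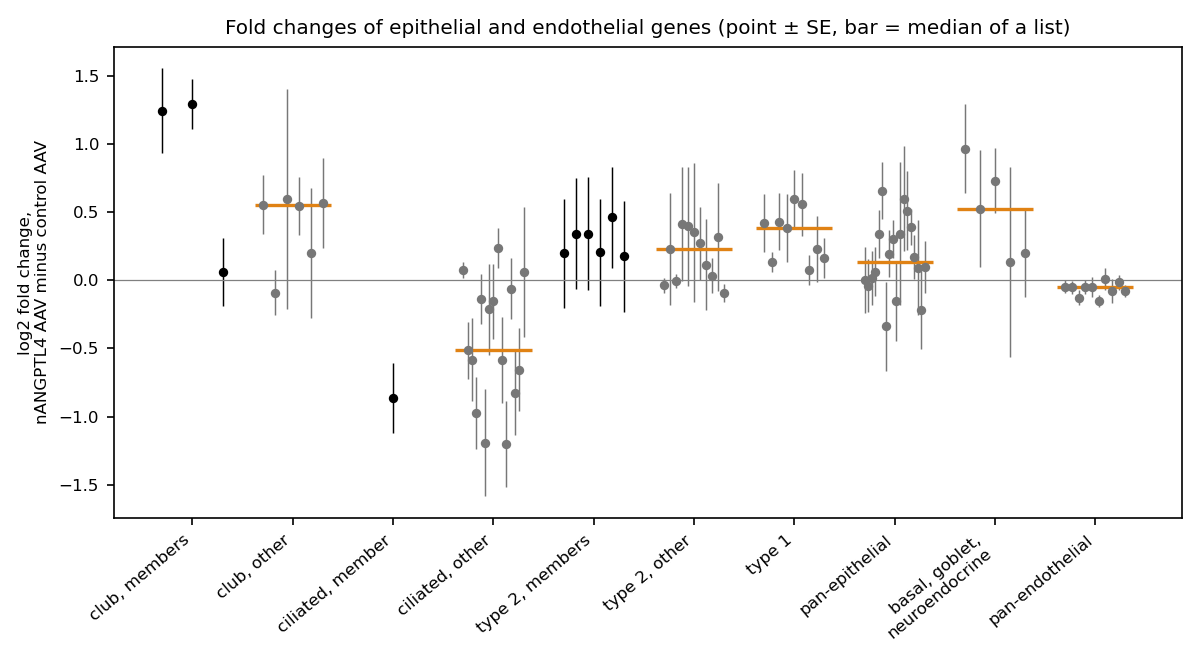
Log2 fold change with its SE, nANGPTL4 AAV minus Control AAV, of each tested gene, black for the 10 genes and grey for the other lists, with an orange bar at the median of each grey list. Club cell genes lie mostly above 0 (median 0.55), ciliated cell genes mostly below (median -0.51), and pan-endothelial genes close to 0 (median -0.05).

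Markers of further cell types varied between the same libraries, and their part in the values above was not tested. The 10 pan-endothelial genes, all tested, had 1 positive and 9 negative log2 fold changes with a median of -0.05. Their summed level was 16706 to 17354 CPM in nANGPTL4 AAV and 17371 to 18076 CPM in Control AAV, without overlap. Non-overlap in this direction held for 6.99% of single genes tested, and no such share was computed for sums. Over the more highly expressed genes tested, the median log2 fold change was -0.03 with TMM scaling and 0.01 with library size alone. The summed macrophage and myeloid list, 8 of 12 genes tested, ranged from 188 to 501 CPM in nANGPTL4 AAV and from 169 to 359 CPM in Control AAV, most of it Cd74, an antigen presentation gene, at 141.9 to 449.5 CPM in nANGPTL4 AAV and 126.5 to 323 CPM in Control AAV. Of the 8 tested, 6 had a positive and 2 a negative log2 fold change, with a median of 0.35. The alveolar macrophage receptor Marco was at 0 counts in 1 of 4 nANGPTL4 AAV and 3 of 4 Control AAV libraries. Its highest level was 0.151 CPM, in Control AAV library 4, against at most 0.0195 CPM in nANGPTL4 AAV. Cd79a, part of the B cell receptor, averaged 1.59 ± 0.392 CPM in nANGPTL4 AAV and 1.18 ± 0.165 CPM in Control AAV (SD, n = 4 each). Fibroblast and mural genes, 10 of 10 tested and led by Inmt and Col1a2, summed to 80.6 to 183 CPM in nANGPTL4 AAV and 72.4 to 145 CPM in Control AAV, with 6 positive and 4 negative log2 fold changes and a median of 0.22. Erythroid and platelet genes, 9 of 10 tested and led by Itga2b and Ppbp, summed to 74.8 to 87.4 CPM in nANGPTL4 AAV and 45.9 to 89.0 CPM in Control AAV. All 9 had positive log2 fold changes, the direction of most club cell genes, with a median of 0.74. The erythroid genes Hbb-bs, Hbb-bt, Hba-a1, Hba-a2 and Alas2 had 0.74 to 2.08. The platelet genes Itga2b, Ppbp, Pf4 and Gp9 had 0.10 to 0.32, with SEs of 0.15 to 0.22. The haemoglobin gene Hbb-bs was at 3.78 ± 2.25 CPM in nANGPTL4 AAV and 1.67 ± 0.808 CPM in Control AAV (SD, n = 4 each), a log2 difference of 1.19 (SE 0.42) with an adjusted p of 0.180 by edgeR. Mesothelial genes, 2 of 5 tested and led by Krt19, which the pan-epithelial list also holds, and Upk3b, summed to 3.28 to 4.0 CPM in nANGPTL4 AAV and 2.32 to 3.88 CPM in Control AAV, with Wt1 at 0 in some libraries of each group and a median log2 fold change of 0.49 for the 2 tested. None of these genes was called by edgeR.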

How the data were processed

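Per the labels' protocols, RNA came from FACS-sorted cells by the PicoPure kit, and SMARTer low-input cDNA was turned into libraries with NEBNext ChIP-Seq reagents. The deposited values are whole-number read counts per Ensembl gene, not normalized. The submitters' processing notes name mm10. The aligner, counter, strand setting and annotation are not given in the sources used here. With versions removed, 31491 of 31610 identifiers had a symbol, and 0 per-sample columns were left unmapped. Coordinates and exon lengths came from GENCODE M21, which uses the same build.

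Groups were compared with edgeR 4.0.16 in R 4.3.3: filterByExpr with a minimum count of 10, TMM scaling, the quasi-likelihood F test with group as the only term, and Benjamini-Hochberg adjustment over 18874 genes, called at an adjusted p under 0.05. CPM used the TMM-scaled totals, and log2 CPM a prior count of 2. A positive log2 fold change means higher in nANGPTL4 AAV. Alternatives were RLE, upper quartile and no scaling, 2 filters on low counts, DESeq2 1.42.0, the replicate number as a block, a prior count of 0.5, and each library left out. No library was a duplicate: within groups, pairs of libraries had chi-square values per degree of freedom between 21.3 and 60.2. Tested on simulated data for this comparison (18874 genes), the fit found 86% of genes changed 1.5-fold and 100% of those changed 2-fold, and called 2 unchanged genes. Changed genes had an average log2 CPM above 1, and each gene's spread followed the trend over all genes. Scgb3a2, Foxj1, Napsa and Lamp3, with means of 0.566 to 1.58 CPM, lay below that level. The shares do not cover such genes or those with a wider spread. In the data Hbb-bs, with a log2 fold change of 1.19, was not called.

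The genes and lists were chosen with earlier results of these data known. Named besides the 10 genes were, of each list, the 2 with the highest mean CPM and any called epithelial gene, and the 5 genes most like Scgb1a1 and Sftpc in deviation from the group mean, provisional symbols skipped. One gene that this rule names, and the sum of its list, are not reported here. All other genes named were chosen after their values were seen.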

Additional observations from a re-analysis of the deposited data

Results flagged for a closer look

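In 5 of 82 groups of 4 libraries examined, 1 library lay far from the other 3 in CPM, by Dixon's ratio of gap to range above 0.829; chance gives this in about 5% of groups. None of the 10 epithelial genes was among them. In nANGPTL4 AAV library 2, Scgb3a1 was at 3.94 CPM against 2.84 to 2.99 CPM in the others of its group, and Agr2 at 0.494 CPM against 0.595 to 0.610 CPM. Krt7 was at 12.1 CPM in nANGPTL4 AAV library 1, where the others had 9.85 to 10.2 CPM. Spdef was at 0.535 CPM in nANGPTL4 AAV library 4 and at 0.296 to 0.324 CPM in the others. Upk3b was at 0.203 CPM in Control AAV library 2, with 0.314 to 0.332 CPM in the others.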

How the results depend on the processing

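Over all genes edgeR called 26, 9 higher and 17 lower. Scaling by upper quartile gave 4 calls and no scaling beyond library size gave 4 (3 higher and 1 lower each). There was 1 call with the stricter filter of at least 1 CPM in 4 libraries, and there were 956 with DESeq2, 6 with the replicate block, and 1 to 2 with 1 library left out; the cause was not tested. Other epithelial genes called were 0 in each edgeR setting and 2 with DESeq2. Of the 10 genes 9 had a positive log2 fold change, 9 under the other settings except the stricter filter, which kept 9 genes and gave 8, and 5 to 9 with 1 library left out, the 5 without Control AAV library 1. Relations that passed numbered 2 of 6, 0 without the 2 farthest libraries, 0 with the replicate block, and 0 to 3 with 1 library left out. The block also removed the mean of each replicate number and left 4 values per pair of genes. These were too few for the adjusted test of single pairs: Sftpc with Sftpb had r = 0.9935 and a permutation adjusted p of 0.167. Nothing is read from the 0 with the block. Weak relations changed sign: Scgb1a1 with Foxj1 was 0.0906 with the replicate block and -0.521 to 0.627 with 1 library left out, Scgb1a1 with Cbr2 was -0.116 without the 2 farthest libraries and -0.0447 to 0.852 with 1 left out, and Scgb1a1 with Sftpc -0.125 to 0.532. With the replicate block, over 4 values, Scgb1a1 had r = 0.899 with Sftpc and 0.686 with Cbr2 (permutation adjusted p = 0.250 and 0.400). Without the block, over 8 libraries, r was 0.210 and 0.295. Deviations of same-numbered libraries correlated across genes with r = 0.155, 0.144, -0.248 and -0.376. Libraries of different numbers were not compared in this way, so whether the replicate number pairs libraries was not tested. Counts of 29 to 88 limit the precision of Scgb3a2.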

Other observations

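Type 1 cell genes besides Hopx and Gprc5a were looked at after their values were seen. Ager, the receptor for advanced glycation end products and a marker of type 1 cells, was at 66.7, 54.2, 56.4 and 53.8 CPM in nANGPTL4 AAV libraries 1 to 4 and 32.7, 28.1, 47.2 and 65.0 CPM in Control AAV libraries 1 to 4. Control AAV library 4 thus lay within the range of nANGPTL4 AAV, and the other Control AAV libraries below it. Cldn18, an epithelial claudin, was lowest in Control AAV library 1 at 7.31 CPM and highest in nANGPTL4 AAV library 1 at 20.6 CPM.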
